A study of Mus musculus with 6 samples.

Results

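The mitochondrial genome is a small circle of DNA that mouse cells carry in many copies, and its transcripts are described here in cultured fibroblasts treated with TNF-ɑ and cycloheximide. Its rows were taken from the authors' table by position alone, as every row placed on the mitochondrial chromosome, which gave 37 of 48897 rows. They are 13 mRNA rows, 2 rRNA rows and 22 tRNA rows, the full annotated gene set of this genome. The rule uses no measured value. The cells were C57BL/6 mouse embryonic fibroblasts (MEF) at passages 5 to 7, with no genetic change named in the labels. Control cells received PBS, TC cells received the cytokine TNF-ɑ with cycloheximide, and TCZ cells received TNF-ɑ, cycloheximide and z-VAD-fmk. The sources used here give no doses or durations. Cycloheximide blocks translation by cytosolic ribosomes and leaves mitochondrial ribosomes working, and z-VAD-fmk inhibits caspases, the proteases that carry out apoptosis. Cycloheximide was in both treated groups and was not given alone, so its part and that of TNF-ɑ cannot be told apart.

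Each group had 2 libraries of poly(A) RNA, named here by group and number (control 1, control 2 and so on). Whether these were separate cultures is not in the labels, so the p-values reflect a spread that may be only technical. Total counts ran from 24922627 to 52909926 per library. They were lowest in TCZ 2 (24922627) and control 2 (26834352), and 46509236 or more in the others. All 10 fibroblast markers examined had counts, with summed values of 32062 to 38629 counts per 1000000 of the library total. The endothelial list (Pecam1, Cdh5, Tie1, Kdr) summed to 10.7 and 12.5 in control, 143 and 136 in TC, then 49.0 and 50.6 in TCZ. Kdr gave most of this, at 9.503 and 10.8, then 141 and 135, then 37.4 and 37.9, while Pecam1 was counted 1 and 4 times in control, 9 and 5 in TC, then 528 and 260 in TCZ. Tie1 was at 0 in 5 of 6 libraries. The neural list, mostly Tubb3, summed to 39.6 and 37.8 in control, 7.26 and 9.03 in TC, then 17.1 and 16.5 in TCZ. The macrophage and leukocyte list summed to 11.5 and 11.9, then 8.41 and 10.1, then 17.9 and 21.0. The epithelial list summed to 2.90 and 3.02, then 12.3 and 11.1, then 2.23 and 2.05. The muscle list summed to between 169 and 227, with Myod1 and Myog at 7 counts or fewer. Rnu1a1 and Rn7s1, the most counted in sum of 7 RNAs examined that have no poly(A) tail, set control 2 and TCZ 2 apart. Rnu1a1, a spliceosomal RNA, was counted 165 and 3 times in control, 242 and 274 in TC, then 231 and 1 in TCZ. Rn7s1, the RNA of the signal recognition particle, had 4916 and 1338, then 5704 and 6106, then 5789 and 4. Per 1000000 of the library total, Rnu1a1 was at 3.55 and 0.11, then 4.88 and 5.39, then 4.37 and 0.04. On the same scale Rn7s1 was at 106 and 49.9, then 115 and 120, then 109 and 0.16. The other 5 did not follow this pattern. Rn7sk had 3 and 8 counts, then 46 and 34, then 128 and 34, Rpph1 had 2 and 3, then 1 and 0, then 43 and 15, and Rmrp, Rnu11 and Rnu12 had 13 or fewer. The part of these differences in the results was not tested, and results that rest on those libraries are given with and without them.

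Mitochondrial DNA is transcribed from both strands into long precursors by the polymerase POLRMT with the factors TFAM and TFB2M. Most mRNAs and rRNAs are separated by tRNAs, which the enzymes RNase P and RNase Z cut out to release them. The mRNAs encode subunits of respiratory complexes I, III and IV and of the ATP synthase, complex V, and the rRNAs build the ribosome that translates them. Short poly(A) tails are added by MTPAP, so a library of poly(A) RNA sees the level of an RNA and the share of it with a tail together, and they cannot be told apart. The values here are relative to the library. In bulk RNA, fewer mitochondria per cell, fewer cells rich in them and less RNA per mitochondrion cannot be told apart either.

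The layout of the genes can be read in the junction of mt-Rnr2, the large-subunit rRNA, and ND1, a complex I subunit, shown because the levels of these neighbours parted under treatment. The stretch is chrM:2656-2770 on the plus strand of GRCm38 (mm10), assembled from the GENCODE M21 transcripts. The capitals are TrnL1, a leucine tRNA, which leaves no spacer on either side.
mt-Rnr2, TrnL1 and ND1: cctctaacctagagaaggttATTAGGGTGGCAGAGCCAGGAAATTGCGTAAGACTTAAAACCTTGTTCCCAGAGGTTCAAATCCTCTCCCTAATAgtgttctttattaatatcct
mt-Rnr2 ends at base 2675 and ND1 starts at base 2751. All 37 positions in the table match this annotation.

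Part of the mitochondrial genome also lies in the nucleus as a copy, which bears on how some rows can be read. The mitochondrial sequences were searched against 141730 annotated nuclear transcripts, keeping alignments of at least 50 bases. Within chrM:6390-11042 they matched a row of 7 annotated pseudogenes on chr1:24611535-24616197, minus strand, at 99% identity or more. The stretch from the first to the last matched base is 4653 bases. The alignments do not cover all of it, and none that was kept covers the 5 tRNA rows wholly inside. COX2, ATP6, COX3, ND3 and ND4L lie wholly inside this stretch and matched over at least 98.99% of their length. ATP8 lies inside it too, between COX2 and ATP6, but no alignment that was kept covers it, so its own sequence was not compared. ND4 has 63.6% of its bases inside the stretch and COX1 31.3%, and the other 5 mRNA rows and both rRNA rows lie outside. The tables used here do not say how reads that fit both places were handled. Values of the 6 rows wholly inside are therefore uncertain, and this division of the rows was made after their values were seen.

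The borders of the copy show how close the sequences are. At the downstream border, bases 847 to 906 of ND4 (chrM:11013-11072, plus strand) are set against the nuclear pseudogene Gm28439 (chr1:24611535-24611564, minus strand), and capitals mark the last 30 matched bases.
ND4: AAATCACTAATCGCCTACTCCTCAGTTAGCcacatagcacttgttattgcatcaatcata
Gm28439: AAATCACTAATCGCCTACTCCTCAGTTAGC
All 876 bases of ND4 inside the stretch were identical to the copy. At the upstream border, bases 1048 to 1092 of COX1 (chrM:6375-6419, plus strand) are set against Gm29216 (chr1:24616159-24616197, minus strand), and capitals mark the aligned bases.
COX1: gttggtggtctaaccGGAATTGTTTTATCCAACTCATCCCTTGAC
Gm29216: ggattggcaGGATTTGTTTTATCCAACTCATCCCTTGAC
The only difference in the 483 aligned bases was A1066T, counted from base 1 of the COX1 row with the mitochondrial base first. The longest identical run was 479 bases. Among the rows aligned to this copy, ND3 (chrM:9459-9491, plus strand) is the only other with a difference, T3C. Its copy is Gm28438 (chr1:24613087-24613119, minus strand), and the capital marks the base.
ND3: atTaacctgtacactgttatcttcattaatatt
Gm28438: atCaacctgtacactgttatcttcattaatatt
COX2, ATP6, COX3 and ND4L had no difference from the copy over their aligned bases. Outside the stretch, mt-Rnr1 and ND1 had no annotated nuclear match of 50 bases among those kept. The closest match of ND2 reached 96.7% identity with a longest identical run of 129 bases. ND5, ND6, CYTB and mt-Rnr2 had closest matches of 95.2%, 93.6%, 92.9% and 88.4% identity. COX1 also matched the pseudogene Gm13340 on chr2 over all its 1545 bases at 97.6% identity, with a longest identical run of 148 bases. Its bases outside the stretch thus also have a nuclear copy, though a less close one.

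Mitochondrial rows held a smaller share of the library in both treated groups. In control the share was 1.58% and 1.61%, in TC 0.915% and 0.842%, and in TCZ 1.28% and 1.37% (1.60% ± 0.017, 0.878% ± 0.052 and 1.32% ± 0.068, SD, n = 2). The groups did not overlap, and TCZ lay between TC and control. The lower share was that of the mRNA rows, at 1.45% and 1.47% in control, 0.787% and 0.725% in TC, then 1.05% and 1.11% in TCZ. The rRNA rows went a different way, at 0.128% and 0.132% in control, 0.127% and 0.116% in TC, then 0.229% and 0.256% in TCZ. The ratio of mRNA to rRNA counts, which needs no scaling between libraries, was 11.3 and 11.2 in control, 6.19 and 6.22 in TC, then 4.56 and 4.35 in TCZ. The lowest mRNA to rRNA ratios were thus in TCZ, although its mRNA share was above that of TC. An exact permutation test of 2 against 2 libraries cannot pass 0.05, so these shares are a description.

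Of the 37 rows, 17 had enough counts to be tested, namely all mRNA and rRNA rows and 2 tRNA rows, and the other 20 were tRNA rows. Against control, TC had 1 row higher and 14 lower, where 60.7% of all 18563 genes tested changed, 31.6% higher and 29.2% lower. Their median log2 fold change was -0.94, against 0.02 for all genes tested. TCZ against control had 2 rows higher and 7 lower, with a median of -0.18 against 0.05, where 60.1% of all genes changed, 31.5% higher and 28.6% lower. Without TCZ 1 this became 6 higher and 4 lower with a median of 0.014. TCZ against TC had 15 rows higher and none lower, with a median of 0.69 against 0.02, where 56.1% of all genes changed, 28.2% higher and 27.9% lower. The comparisons share libraries and are not independent of each other. With the 6 rows of the copied stretch and the tRNA rows set aside, 9 rows remained, with 1 higher and 8 lower in TC, 2 higher and 6 lower in TCZ, and 9 higher in TCZ against TC. Over these 9 rows the medians were -0.71, -0.20 and 0.57. Scaling matters for the direction of small changes here. With library totals alone in place of the trimmed mean of M values (TMM), the median of all genes moved by -0.14 in TC, -0.20 in TCZ and -0.06 in TCZ against TC. The split of all genes in TCZ against control then became 4556 higher and 7019 lower, from 5851 and 5313.

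**Figure D1:**
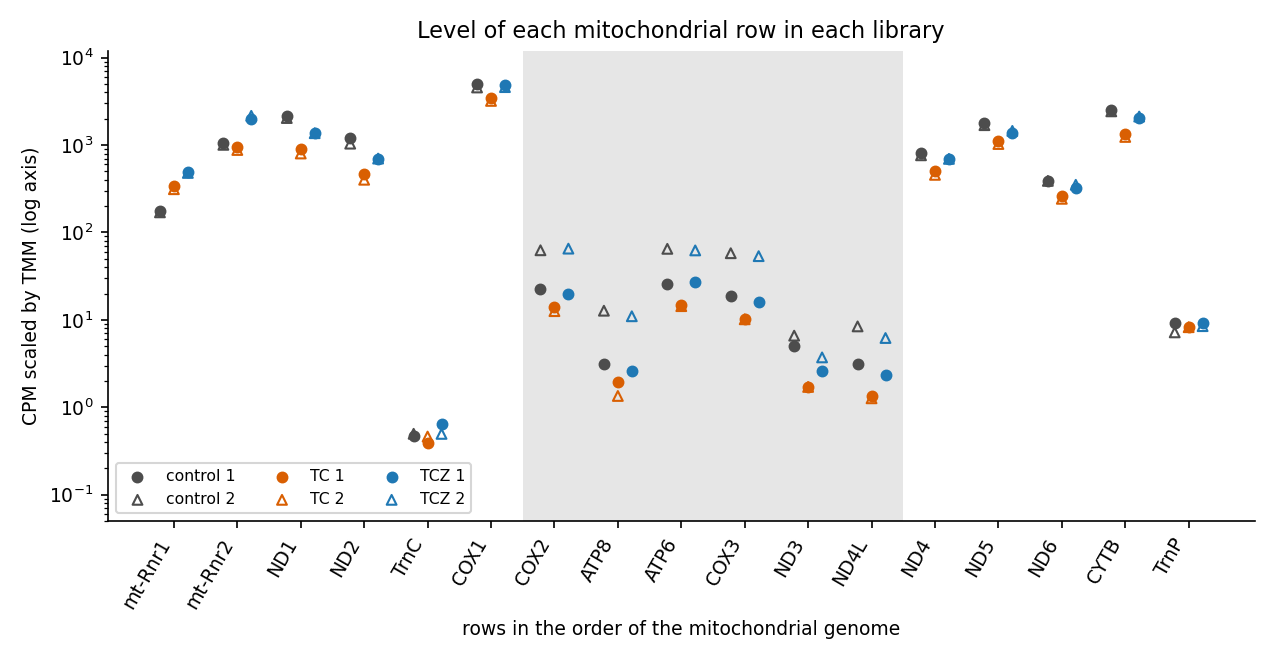
Counts per 1000000 (TMM-scaled, log axis) of the 17 tested rows in each of the 6 libraries, with rows in genome order; each point is a library (filled circles library 1, open triangles library 2), and grey shading marks the 6 rows wholly inside the stretch copied on chromosome 1. The 2 libraries of a group nearly coincide outside the shading and part within it for control and TCZ.

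mt-Rnr1 rose in both treated groups and mt-Rnr2 in TCZ, while no mRNA row rose against control. The values that follow for single rows are TMM-scaled counts per 1000000 (CPM). mt-Rnr1, the rRNA of the small mitochondrial ribosomal subunit, was at 176 and 170 in control, 343 and 313 in TC, then 492 and 480 in TCZ. The 3 groups did not overlap. It rose by a log2 fold change of 0.92 ± 0.07 (SE) in TC (edgeR quasi-likelihood test, adjusted p = 2.38e-10), by 1.49 ± 0.07 in TCZ (adjusted p = 7.59e-14) and by 0.57 ± 0.07 from TC to TCZ (adjusted p = 6.67e-07). mt-Rnr2, the rRNA of the large subunit that holds the peptide-bond centre, was at 1055 and 1006 in control, 954 and 878 in TC, then 2008 and 2160 in TCZ. It was 2.02-fold higher in TCZ than in control (log2 1.02 ± 0.07, adjusted p = 5.46e-11) and 2.27-fold higher than in TC (1.18 ± 0.07, adjusted p = 9.54e-12). In TC its log2 change was -0.17 ± 0.07 with an adjusted p of 0.0472. That call was kept in 11 of 17 alternatives and lost without a filter (adjusted p = 0.325) and without control 1 (0.145), TC 1 (0.122), TC 2 (0.504), TCZ 1 (0.0807) or TCZ 2 (0.1000). The rRNAs are neighbours on the same precursor, and their ratio per kilobase (deposited RPKM of mt-Rnr1 over mt-Rnr2) was 0.276 and 0.280 in control, 0.595 and 0.590 in TC, then 0.406 and 0.368 in TCZ.

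Complex I is the NADH dehydrogenase that feeds electrons into the respiratory chain, and 7 of its subunits are encoded in mitochondrial DNA. ND1, at the membrane joint of the complex, was at 2146 and 2038 CPM in control, 891 and 801 in TC, then 1361 and 1367 in TCZ. ND2, a proton-pumping subunit, was at 1217 and 1038 in control, 464 and 401 in TC, then 700 and 701 in TCZ. Both had groups that did not overlap, with TCZ between TC and control. ND1 fell by 1.31 ± 0.07 on the log2 scale in TC (adjusted p = 7.98e-13) and ND2 fell by 1.38 ± 0.08 (adjusted p = 3.40e-12), the lowest values among the 9 rows. In TCZ they fell by 0.62 ± 0.07 (adjusted p = 1.57e-07) and 0.69 ± 0.08 (adjusted p = 2.60e-07). From TC to TCZ each rose by 0.69 (adjusted p = 4.45e-08 and 3.26e-07).

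ND4, another proton-pumping subunit, was at 807 and 764 CPM in control, 505 and 456 in TC, then 691 and 695 in TCZ. ND5, the subunit at the far end of the membrane arm, was at 1807 and 1689 in control, 1101 and 1028 in TC, then 1378 and 1452 in TCZ. ND6, the only mRNA on the other strand, was at 388 and 389 in control, 260 and 243 in TC, then 324 and 351 in TCZ. For all 3 the order was control, TCZ, TC, with no overlap. In TC, ND4 fell by 0.71 ± 0.07, ND5 fell by 0.72 ± 0.07 and ND6 fell by 0.63 ± 0.07 on the log2 scale, with adjusted p from 1.26e-08 to 1.09e-07. In TCZ, ND5 fell by 0.30 ± 0.07 (adjusted p = 0.00084), ND6 fell by 0.20 ± 0.07 (0.0187) and ND4 fell by 0.18 ± 0.07 (0.0350). The ND4 call was kept in 10 of 17 alternatives and lost without a filter (adjusted p = 0.146), with a filter at 50 counts (0.0529), and without control 1 (0.119), TC 1 (0.0992), TC 2 (0.0949), TCZ 1 (0.126) or TCZ 2 (0.144). The ND6 call was lost without a filter (0.0959) and without TC 1 (0.0583), TC 2 (0.0542) or TCZ 1 (0.188). Relative to TC, ND4 rose by 0.53, ND5 by 0.41 and ND6 by 0.42 in TCZ, each ± 0.07 (adjusted p from 2.08e-06 to 4.36e-05).

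ND5 and ND6 face each other and overlap at their ends over 14 bases, chrM:13552-13565. The ends of both rows are shown, each on its own strand, with the shared bases in capitals (ND5 chrM:13537-13565, ND6 chrM:13552-13580).
ND5: ttatcttatactcaaTTAATCTCGAGTAA
ND6: ttattattatcgagaTTACTCGAGATTAA
The strand setting of the counting is not given in the sources used here, so reads over these bases cannot be assigned to a strand with certainty. Per kilobase, ND6 stood at 0.755 and 0.810 of ND5 in control, 0.831 and 0.830 in TC, then 0.828 and 0.850 in TCZ.

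Complex III passes electrons to cytochrome c, and its mitochondrially encoded subunit is cytochrome b. CYTB was at 2505 and 2431 CPM in control, 1334 and 1239 in TC, then 2067 and 2119 in TCZ. The groups were again apart, in the order control, TCZ, TC. It fell by 0.94 ± 0.07 on the log2 scale in TC (adjusted p = 9.81e-11) and rose by 0.70 ± 0.07 from TC to TCZ (adjusted p = 1.93e-08). In TCZ it fell by 0.24 ± 0.07 against control (adjusted p = 0.00526), a call that was lost without TCZ 1 (0.0754) or TCZ 2 (0.0551).

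Complex IV, cytochrome c oxidase, reduces oxygen, and COX1 encodes its catalytic subunit. COX1 was at 4991 and 4560 CPM in control, 3432 and 3201 in TC, then 4808 and 4603 in TCZ. Control and TCZ overlapped, and both lay above TC. It fell by 0.53 ± 0.07 on the log2 scale in TC (adjusted p = 1.48e-06), the least of the 7 mRNA rows not wholly inside the copied stretch, and rose by 0.50 ± 0.07 from TC to TCZ (adjusted p = 3.78e-06). TCZ and control differed by -0.02 ± 0.07 (adjusted p = 0.819). With library totals alone the same difference was -0.22 (adjusted p = 9.13e-06). In TC against control all 7 of these mRNA rows and mt-Rnr1 kept their calls in 17 of 17 alternatives, and in TCZ against TC all 9 rows did.

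**Figure D2:**
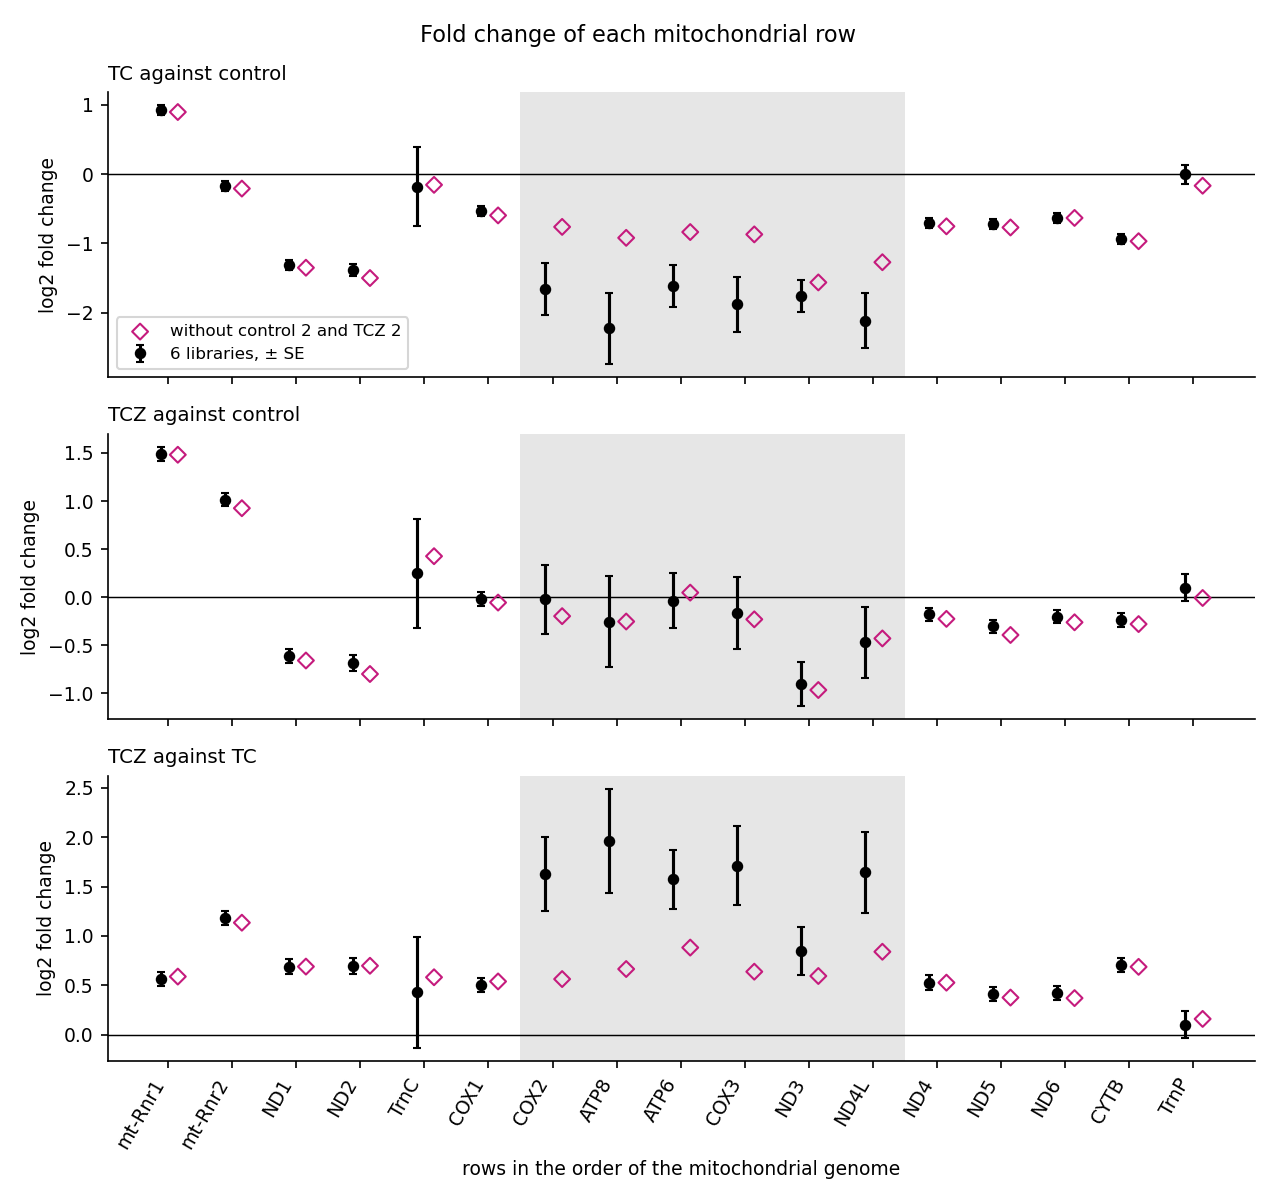
Log2 fold change with its standard error (bars) for the 17 tested rows in genome order, for each treated group against control and for TCZ against TC; black points are from all 6 libraries, open diamonds leave out control 2 and TCZ 2, and grey shading marks the 6 rows wholly inside the stretch copied on chromosome 1. mt-Rnr1 lies above 0 in all 3 comparisons, and points and diamonds part in TC against control and in TCZ against TC within the shading, as for COX2 (-1.65 and -0.76).

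The 6 mRNA rows wholly inside the copied stretch had far lower counts and a wide spread. COX2, a complex IV subunit, was at 22.4 and 62.6 CPM in control, 14.0 and 12.6 in TC, then 19.6 and 65.3 in TCZ. COX3, another, was at 18.6 and 57.9, then 10.3 and 10.2, then 15.8 and 53.6. In both, control 2 and TCZ 2 were high, and control and TCZ overlapped. ATP6, the proton-channel subunit of the ATP synthase, was at 26.0 and 65.0 CPM in control, 14.9 and 14.4 in TC, then 26.9 and 62.4 in TCZ. ATP8, a small subunit of the same complex whose row overlaps that of ATP6 by 43 bases, was at 3.09 and 12.7, then 1.94 and 1.35, then 2.60 and 11.0. The same 2 libraries were high again. Of the complex I subunits here, ND3 was at 5.03 and 6.60 CPM in control, 1.71 and 1.71 in TC, then 2.58 and 3.72 in TCZ. ND4L was at 3.13 and 8.42, then 1.34 and 1.27, then 2.33 and 6.20. Of the 6, only ND3 had control and TCZ values that did not overlap.

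In control and TCZ, but not in TC, the ratio of library 2 to library 1 separated these rows from the other mRNA and rRNA rows. Over the 9 other mRNA and rRNA rows it ran from 0.853 to 1.002 in control, 0.864 to 0.934 in TC and 0.957 to 1.08 in TCZ. Over the 6 rows it ran from 1.31 to 4.12 in control, 0.696 to 1.0004 in TC and 1.44 to 4.24 in TCZ. ND3, one of the 2 aligned rows with a base that differs from the copy, gave the lowest ratio in control and TCZ. Control 2 and TCZ 2 are also the libraries low in Rnu1a1 and Rn7s1, and those with the lowest total counts (26834352 and 24922627). The part of these traits in the 6 rows was not tested.

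**Figure D3:**
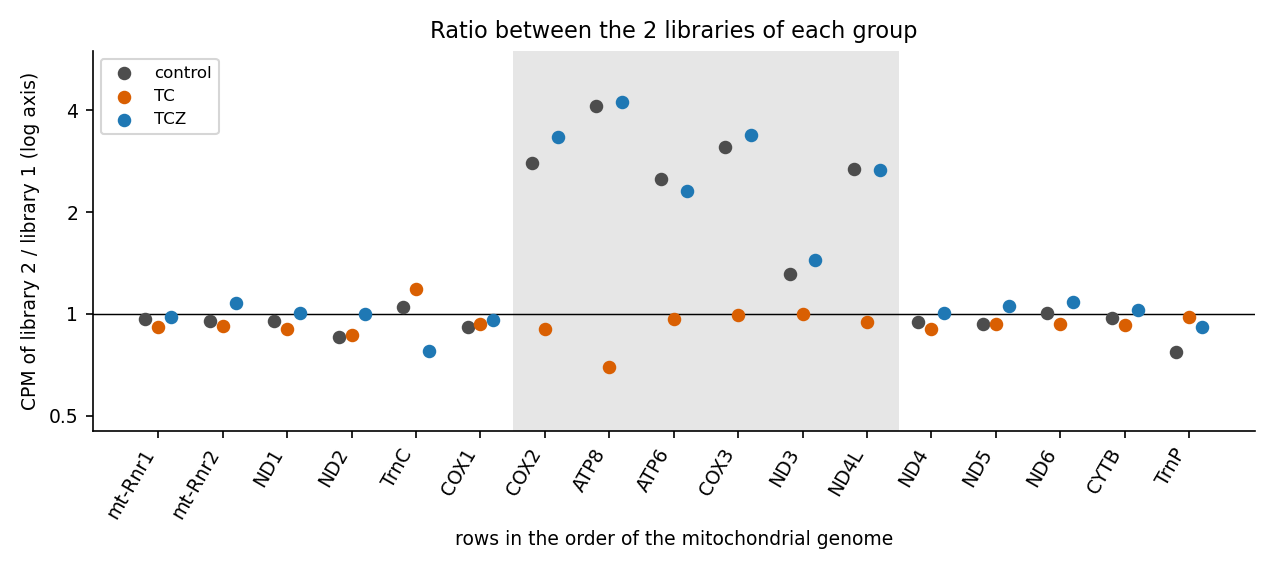
CPM of library 2 divided by CPM of library 1 (log axis) for each tested row in genome order and each group; the line is at 1 and grey shading marks the 6 rows wholly inside the stretch copied on chromosome 1. Control and TCZ reach 4.12 and 4.24 inside the shading and stay near 1 outside it.

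All 6 rows passed the test as lower in TC than in control, by log2 fold changes of -1.61 ± 0.30 (ATP6) to -2.22 ± 0.52 (ATP8), with a median of -1.82. These sizes rest on control 2. Without it, the changes were -0.77 for COX2 (adjusted p = 0.122), -0.92 for ATP8 (0.172), -0.84 for ATP6, -0.87 for COX3 (0.0843), -1.56 for ND3 and -1.27 for ND4L. Without both control 2 and TCZ 2 they ran from -0.76 (COX2) to -1.56 (ND3). That fit keeps 1 library in control and 1 in TCZ, so its spread rests on the TC libraries alone. Without control 1 they ranged from -1.94 (ND3) to -2.95 (ATP8). DESeq2 made no call for COX2 (adjusted p = 0.0847), ATP8 (0.0650) or COX3 (0.0575). ND3 and ND4L, with ATP6, kept their calls in 17 of 17 alternatives.

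In TCZ against control only ND3 of the 6 passed, at -0.91 ± 0.23 (adjusted p = 0.00177), and the others lay between -0.02 and -0.47. Their direction turned with the library left out. Without TCZ 1, COX2 was at 0.64, ATP8 at 0.52, ATP6 at 0.47 and COX3 at 0.51, and without TCZ 2 they were at -1.08, -1.55, -0.73 and -1.23, all of them passing the test. ND4L, at -0.47 (adjusted p = 0.285), was at 0.13 without TCZ 1 and 0.37 without control 2, and was called without control 1 (-1.05, 0.0286), TC 2 (-0.48, 0.0376) or TCZ 2 (-1.27, 0.000106). In TCZ against TC the 6 rows rose by 0.85 (ND3) to 1.97 (ATP8). DESeq2 called only ATP6 and ND3 of them, with COX2 (adjusted p = 0.0870), ATP8 (0.102), COX3 (0.0827) and ND4L (0.0578) not called, which leaves 11 rows higher in place of 15, and limma-voom did not call ATP8 (0.0602). Without TCZ 2 the same changes ran from 0.56 for COX2 to 0.88 for ATP6, and ATP8 (adjusted p = 0.0539) and ND3 (0.0564) were no longer called. Without TCZ 1 they ran from 1.11 for ND3 to 2.74 for ATP8.

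The levels of the rows per kilobase can be compared within a library from the deposited RPKM. In control the order was COX1 (3371 and 3317), ND1 (2341 and 2394), CYTB (2285 and 2388), ND2 (1224 and 1124), ND5 (1034 and 1041), ND6 (781 and 843), mt-Rnr2 (696 and 715), ND4 (611 and 623) and mt-Rnr1 (192 and 200). ND1 and CYTB overlapped, and the other neighbours did not. The copied rows were far lower, from 11.0 for ND4L in control 1 to 107 for ATP6 in control 2. ND4L and ND4 share 7 bases and a transcript, yet ND4 had 55.5 and 19.5 times the RPKM of ND4L in control, 81.3 and 77.6 in TC, then 63.9 and 24.2 in TCZ. COX1 had 98.5 and 32.3 times the RPKM of COX2 in control, 109 and 113 in TC, then 109 and 31.2 in TCZ. With length taken as the bases outside the copied stretch only, COX1 was at 4904 and 4825 and ND4 at 1677 and 1710 in control. This assumes that no read inside the stretch was counted and that none outside it was lost to another nuclear copy.

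In TC the order changed. COX1 (2177 and 2026) was followed by CYTB (1143 and 1059) and ND1 (913 and 818), whose values no longer overlapped. ND5 (591 and 551) and mt-Rnr2 (591 and 543) overlapped, and ND2 (438 and 378) lay below ND6 (492 and 457). mt-Rnr1 (352 and 320) reached the level of ND4 (359 and 324). In TCZ mt-Rnr2 (1164 and 1325) overlapped ND1 (1305 and 1386), and mt-Rnr1 (472 and 488) overlapped ND4 (460 and 489). Over the bases outside the copied stretch only, ND4 was at 985 and 889 in TC and 1262 and 1343 in TCZ. Under that assumption ND4 lay above mt-Rnr1 in both groups.

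Per kilobase, COX1 held a larger share of the counts assigned to mRNA rows in both treated groups than in control, and ND1 and ND2 smaller shares. How reads inside the copied stretch were handled is not stated, so these need not be shares of the mRNA itself. Each mRNA is given as a percent of the summed RPKM of all 13 mRNA rows, a measure that needs no scaling between libraries. COX1 held 28.6% and 27.3% in control, 35.2% and 35.7% in TC, then 34.5% and 32.2% in TCZ. ND1 held 19.9% and 19.7%, then 14.8% and 14.4%, then 15.8% and 15.4%. ND2 held 10.4% and 9.25%, then 7.09% and 6.65%, then 7.49% and 7.29%. ND4 held 5.18% and 5.13%, then 5.80% and 5.70%, then 5.56% and 5.45%. For these 4 rows the treated libraries did not overlap with control. ND6 held 6.62% and 6.94%, then 7.95% and 8.05%, then 6.93% and 7.31%, and ND5 held 8.77% and 8.57%, then 9.56% and 9.70%, then 8.38% and 8.61%. For both, TC lay above control, and the ranges of TCZ and control overlapped. CYTB held 19.4% and 19.7%, then 18.5% and 18.6%, then 20.04% and 20.02%, with TC below control and TCZ above it. Over bases outside the copied stretch only, CYTB held 16.04% and 16.7% in control and 14.8% and 14.9% in TC. TCZ, at 16.1% and 16.6%, then lay within the range of control. Each of the 6 copied rows held 1.03% or less, and among them ND3 held 0.128% and 0.175% in control and 0.116% or less in the treated libraries.

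Ratios between rows can also be read without any scaling. Per kilobase, ND1 stood at 3.36 and 3.35 times mt-Rnr2, the rRNA before it on the precursor, in control, at 1.54 and 1.51 in TC and at 1.12 and 1.05 in TCZ. ND1 over COX1 was 0.694 and 0.722 in control, 0.419 and 0.404 in TC, then 0.457 and 0.479 in TCZ. ND2 over COX1 was 0.363 and 0.339, then 0.201 and 0.187, then 0.217 and 0.227. In each of these 3 ratios the 4 treated libraries lay below both controls. CYTB over COX1 was 0.678 and 0.720, then 0.525 and 0.523, then 0.580 and 0.622, while ND5 over COX1 moved less, at 0.307 and 0.314, then 0.272 and 0.272, then 0.243 and 0.267. Here too the 4 treated libraries lay below both controls. With 2 libraries a group, no exact test of a single ratio can pass 0.05.

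**Figure D4:**
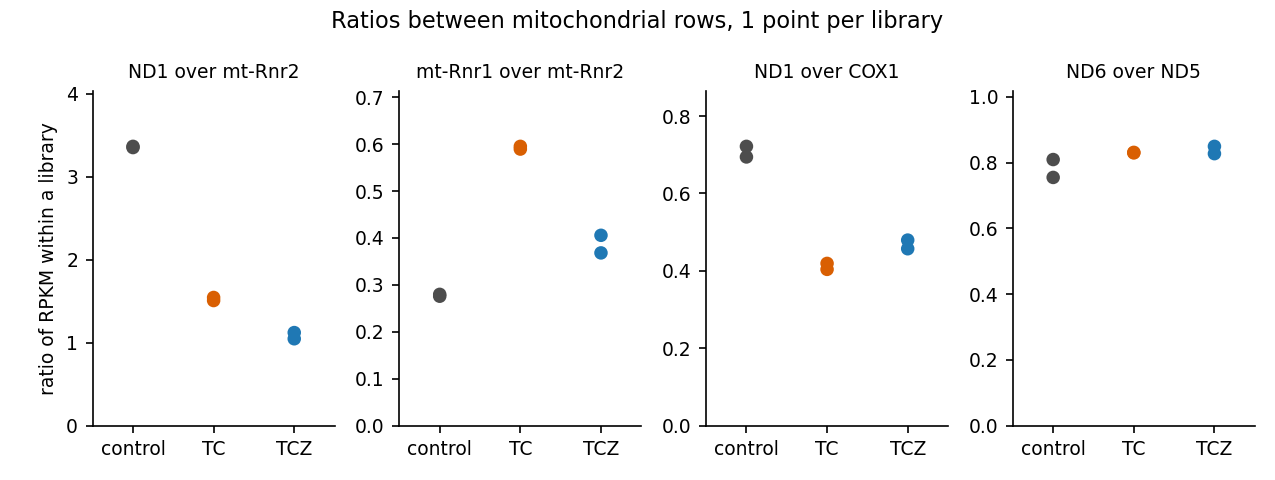
Ratios of deposited RPKM between mitochondrial rows (no unit, axes from 0), with ND1 over mt-Rnr2, mt-Rnr1 over mt-Rnr2, ND1 over COX1 and ND6 over ND5 in turn; points are the 6 libraries, coloured by group. The ratio of ND1 to mt-Rnr2 falls from 3.36 and 3.35 in control to 1.12 and 1.05 in TCZ, and that of mt-Rnr1 to mt-Rnr2 is highest in TC.

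The tRNA rows, 59 to 75 bases long, had few counts in these libraries. Of the 22, 14 were at 0 in every library and 5 had between 1 and 10 counts in all. Of the 14 on the plus strand 2 had a count, 3 counts in sum, and of the 8 on the minus strand 6 had a count, 2303 in sum. A count of 0 here says only that no read was assigned to the row. TrnP, the proline tRNA, carried most of them and is shown with TrnC, the cysteine tRNA, because these are the 2 tRNA rows that could be tested (chrM:15356-15422 and chrM:5192-5257, both minus strand).
TrnP: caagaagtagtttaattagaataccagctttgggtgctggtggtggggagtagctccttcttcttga
TrnC: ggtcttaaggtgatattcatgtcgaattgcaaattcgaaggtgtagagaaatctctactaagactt
The counts of TrnP were 452 and 217 in control, 408 and 410 in TC, then 450 and 205 in TCZ, which is 9.31 and 7.20, 8.40 and 8.25, and 9.27 and 8.48 CPM. The groups overlapped, and its log2 fold changes were 0.00 ± 0.14 in TC (adjusted p = 0.996) and 0.10 ± 0.14 in TCZ (adjusted p = 0.567). TrnC had 23 and 15, 19 and 23, and 31 and 12 counts, with log2 changes of -0.18 ± 0.57 in TC (adjusted p = 0.803) and 0.25 ± 0.57 in TCZ (adjusted p = 0.735). After these came TrnN with 6, 2, 8, 7, 3 and 1 counts and TrnE with 3, 1, 0, 0, 1 and 1, in the library order control, TC, TCZ. With an SE of 0.57, only a large change in TrnC could have been called. The other 20 tRNA rows had too few counts to be tested.

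The nuclear genes that transcribe, process, protect and replicate mitochondrial DNA and its RNA were read beside them, as 68 genes in 4 lists, all of them tested. In TC 18 were higher and 27 lower (median -0.09), in TCZ 14 were higher and 28 lower (median -0.18), and in TCZ against TC 13 were higher and 29 lower (median -0.19). Among all genes tested 31.6%, 31.5% and 28.2% were higher in these comparisons, and 29.2%, 28.6% and 27.9% were lower. In either direction 60.7%, 60.1% and 56.1% of all genes were called. With library totals alone the split in TCZ against control became 10 higher and 41 lower. Of the 12 transcription genes, none was higher and 3 were lower in TC, and 1 was higher and 6 were lower in TCZ. Of the 26 RNA processing genes 12 were higher and 10 lower in TC, and 6 and 9 in TCZ. Of the 11 genes of RNA stability and decay 5 were higher and 4 lower in TC, and 3 and 3 in TCZ. Of the 19 replication genes 1 was higher and 10 lower in TC, and 4 and 10 in TCZ.

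**Figure D5:**
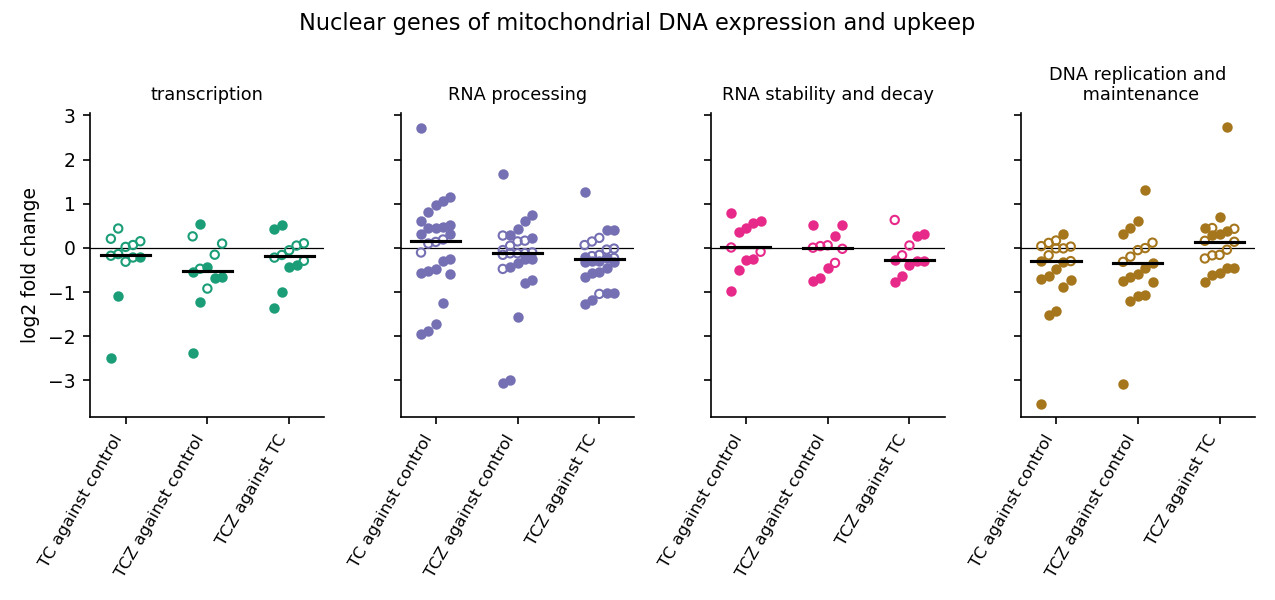
Log2 fold change of the 68 nuclear genes in the 3 comparisons, by list; each point is a gene, filled where it passed the test and open where it did not, and black bars are the medians. The medians of the transcription list are -0.16 in TC and -0.51 in TCZ.

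Polrmt, the polymerase itself, was at 21.2 and 21.1 CPM in control, 24.0 and 23.0 in TC, then 24.2 and 20.8 in TCZ, with log2 changes of 0.15 ± 0.09 (adjusted p = 0.161) and 0.10 ± 0.09 (adjusted p = 0.381). Tfam, which packages the DNA and starts transcription, was at 30.3 and 27.0, then 25.5 and 24.0, then 18.9 and 17.6. It fell by 0.65 ± 0.09 in TCZ (adjusted p = 2.75e-06). Its change of -0.22 in TC (adjusted p = 0.0412) was lost with DESeq2 (0.126), without a filter (0.213) and without control 1 (0.375), TC 1 (0.0700) or TC 2 (0.254). Tfb2m, which opens the promoter, was at 25.0 and 23.7 in control, 21.9 and 21.3 in TC, then 17.3 and 15.8 in TCZ. It fell by 0.55 ± 0.09 in TCZ (adjusted p = 2.48e-05), and its -0.18 in TC did not pass (adjusted p = 0.0944) but did with library totals alone (-0.32, 0.00261), a batch term (0.0395) or only the 2 groups fitted (0.0439). Tefm, the elongation factor, was at 6.20 and 5.14, then 5.33 and 4.49, then 2.58 and 2.27. It fell by 1.22 ± 0.20 in TCZ (adjusted p = 1.81e-05) and stood at -0.22 in TC (adjusted p = 0.318). Mrpl12, a ribosomal protein also described as binding the polymerase, fell by 1.09 ± 0.09 in TC and 0.67 ± 0.09 in TCZ. Mterf3, named for its link to transcription termination factors, rose by 0.54 ± 0.10 in TCZ (adjusted p = 4.26e-05).

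Among the processing genes, Trit1, which modifies tRNAs next to the anticodon, was at 9.72 and 8.46 CPM in control, 60.4 and 59.3 in TC, then 29.8 and 28.7 in TCZ. It rose by 2.71 ± 0.09 in TC (adjusted p = 1.11e-16) and by 1.68 ± 0.09 in TCZ (adjusted p = 5.60e-13). Mtpap, the mitochondrial poly(A) polymerase, was at 24.8 and 23.1, then 44.4 and 50.1, then 31.4 and 33.6. It rose by 0.98 ± 0.08 in TC (adjusted p = 1.34e-09) and 0.43 ± 0.09 in TCZ (adjusted p = 2.00e-04). Trmt10c, a subunit of mitochondrial RNase P, rose by 0.82 ± 0.08 in TC and 0.61 ± 0.08 in TCZ. Rpusd4, a pseudouridine synthase, rose by 1.15 ± 0.10 in TC and stood at -0.12 in TCZ (adjusted p = 0.368), or -0.32 (0.0198) with library totals alone. Ptcd2 fell by 1.24 ± 0.12 in TC and 1.55 ± 0.13 in TCZ, and Fastkd5, needed for processing junctions without a tRNA, fell by 0.57 ± 0.11 and 0.80 ± 0.11.

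Lrpprc, which stabilises mitochondrial mRNAs, was at 101 and 94.8 CPM in control, 136 and 133 in TC, then 142 and 138 in TCZ. It rose by 0.46 ± 0.07 in TC (adjusted p = 7.76e-06) and 0.52 ± 0.07 in TCZ (adjusted p = 1.91e-06). Pnpt1, the exonuclease PNPase that degrades mitochondrial RNA, was at 33.0 and 29.4, then 42.8 and 37.7, then 34.1 and 30.9. It rose by 0.36 ± 0.09 in TC (adjusted p = 0.00109) and stood at 0.06 in TCZ (adjusted p = 0.587). Of the replication genes, Peo1, the helicase Twinkle, fell by 0.64 ± 0.12 in TC and 1.21 ± 0.13 in TCZ. Ssbp1, the single-strand DNA binding protein, fell by 0.73 ± 0.10 in TC and 0.34 ± 0.11 in TCZ, the latter lost with DESeq2 (adjusted p = 0.0519), without control 1 (0.0600) and without both control 2 and TCZ 2 (0.0652).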

How the data were processed

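Poly(A) RNA of 6 MEF libraries was sequenced, 2 per group. The submitters' processing notes name bcl2fastq, HISAT2 2.1.0, HTSeq and mm10. The sources used here do not state the strand setting or the handling of reads that fit several places. The authors deposited counts per gene and RPKM. RPKM recomputed from the deposited counts, total counts and lengths differed by at most 5e-07. Members and gene lists were chosen with earlier results of these data known. All 13 mRNA and 2 rRNA rows, the 4 tRNA rows with the highest mean count, and, of the nuclear lists, up to 3 passing rises and 3 passing falls per comparison with control (mean of at least 10 CPM), plus 6 set genes, were named.

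Counts were tested with edgeR 4.0.16 (R 4.3.3, limma 3.58.1, filterByExpr, TMM, quasi-likelihood, 1 fit over 6 libraries, 3 residual degrees of freedom). Of 48897 rows 18563 were tested, and Benjamini-Hochberg adjusted p-values under 0.05 over all of them were calls. SE is the log2 fold change divided by the square root of F. On simulated counts for TC against control, 17549 of 17742 genes were unchanged, unlike the data, where 60.7% of genes were called. The fit called 79.6% of 4-fold, 62% of 2-fold and 64.6% of 1.5-fold rises. It called 60.9% of falls to 0.5-fold and 0.051% of unchanged genes. Alternatives included DESeq2 1.42.0, limma-voom, other scalings and filters, a batch term and libraries left out. Nuclear copies were sought with BLAST 2.17.0, with chr18 left out.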

Additional observations from a re-analysis of the deposited data

How the results depend on the processing

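Of 864 single-row values under the alternatives, 817 counted as the same, 34 lost their call, 8 gained one and 5 reversed, and the cause was not tested. A change of sign counted as a reversal only where the main fit or the alternative made a call. The 817 thus include changes of sign without a call, as for TrnP in TC (-0.17 to 0.21). The reversals were all in TCZ against control with a library left out, namely COX2 (0.64), ATP8 (0.52), ATP6 (0.47) and COX3 (0.51) without TCZ 1, and ATP6 (0.73, adjusted p = 0.0484) without control 2. Over all libraries left out in turn these rows ran from -1.08 to 0.86 (COX2), -1.55 to 1.05 (ATP8), -0.73 to 0.73 (ATP6) and -1.23 to 0.83 (COX3). Where an arm keeps 1 library, that library is assumed to vary like the others. The same-numbered libraries correlated at 0.011 (control and TC), 0.124 (control and TCZ) and -0.021 (TC and TCZ), not all over 0.1, so the numbers were not taken to pair the groups. With a replicate block the counts were 1 higher and 14 lower, 2 and 7, and 15 and 0, and for the nuclear lists 18 and 27, 14 and 28, and 13 and 29, all as without it.

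The median over tested rows in TC against control was -1.09 with library totals alone, -1.10 with a filter at 50 counts, -0.73 with a batch term, -0.77 without control 2 and TCZ 2, and -0.71 with 8 rows lower over the 9 rows not wholly inside the copied stretch, a choice made after seeing the data. In TCZ against control it was -0.38 with library totals alone. In TCZ against TC it was 0.59 without control 2 and TCZ 2, and 0.57 with 9 rows higher over those 9. Leaving out 1 library at a time, the medians ran from -0.99 to -0.77, from -0.34 to 0.014 (the last without TCZ 1) and from 0.59 to 0.76. The rows lower in TC ran from 11 to 13, those higher and lower in TCZ against control from 2 to 6 and from 4 to 10, and those higher in TCZ against TC from 13 to 15. With DESeq2 11 rows were lower in TC and 11 higher in TCZ against TC. Over nuclear rows the share in control was 1.62%, and over mRNA rows alone the shares were 1.46%, 0.756% and 1.08%. COX1 held 35.3%, 43.0% and 41.1% of mRNA counts without division by length, and 34.1%, 41.2% and 39.7% over bases outside the copied stretch, from 27.96%, 35.4% and 33.4%.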
